A study of Homo sapiens with 12 samples.

Results

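The apolipoprotein L (APOL) genes form a cluster of paralogs on chromosome 22, and the mRNA levels of 5 of them (APOL1, APOL2, APOL3, APOL4 and APOL6) are described here across the 4 groups of an experiment on FLT3-ITD acute myeloid leukemia (AML) cells. The members were chosen by gene name, 5 of the 57353 gene names in the count table, after APOL4 had been seen to differ strongly between media in quizartinib-treated cells. That comparison, and the interaction that contains it, are therefore given as description without a test. MOLM-13, a human AML cell line that carries an internal tandem duplication of FLT3 and is labelled wild type in every library, was kept for 15 hr either in regular RPMI or in hBMSC-CM, which is filtered medium conditioned by the human bone marrow stromal line HS-5 and mixed with fresh RPMI, and with either vehicle or 3 nM quizartinib (AC220), a FLT3 kinase inhibitor. Serum was present in both media, and each of the 4 groups had 3 poly-A-selected RNA-seq libraries. All of them come from 1 cell line and, for hBMSC-CM, 1 stromal line, so no other leukemia or donor is represented.

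APOL proteins carry amphipathic and channel-forming segments that insert into membranes. APOL1 is secreted and travels on high-density lipoprotein, where it lyses African trypanosomes, while most other members lack a secretion signal and remain inside the cell. In endothelial and other cells, transcription of several APOL genes is raised by interferon gamma and by tumor necrosis factor, and the interferon pathway runs from receptors through JAK kinases to STAT and IRF transcription factors.

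On the GRCh38 build, the cluster falls into 2 stretches of chromosome 22. APOL3 (ENSG00000128284, 36140329 to 36166177, minus strand), APOL4 (ENSG00000100336, 36189124 to 36204840, minus strand), APOL2 (ENSG00000128335, 36226209 to 36239954, minus strand) and APOL1 (ENSG00000100342, 36253071 to 36267530, plus strand) lie side by side within 127.2 kb. APOL6 (ENSG00000221963, 35648446 to 35668404, plus strand) lies apart from them, beyond APOL5 and the splicing factor gene RBFOX2, so that the 5 genes together span 619.1 kb. None of the 5 overlaps another annotated gene. Because paralogs can share reads, stretches of 50 bases were compared between annotated transcripts. APOL4 and APOL6 shared none of their 4787 and 10016 stretches with another member, whereas APOL1 shared 14 of 3675 (0.381%), APOL2 5 of 3591 (0.139%) and APOL3 9 of 6530 (0.138%). Stretches found in any gene outside or inside the cluster made up 5.37% of those of APOL4 and 4.16% of those of APOL1, so a small part of their reads could have been left uncounted or split.

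The libraries held 19966546 to 31546104 counts each, so that 3 counts, the limit that a count of 0 allows, corresponded to 0.0951 to 0.150 CPM (the counts of a gene scaled to library size). Levels are given as CPM scaled by the trimmed mean of M-values (TMM), and 12998 genes entered the tests. All 5 members passed the filter on low counts, although APOL3 had means below 1 CPM in both vehicle groups and passed only through its level in the quizartinib libraries. Of 15 markers chosen for MOLM-13 and myeloid leukemia, 13 were tested, with FLT3 at 209 ± 3.43 and CD33 at 92.5 ± 1.56 CPM (SD, n = 3) in RPMI with vehicle, while CD34 and ANPEP never exceeded 1 count. Of 15 stromal markers in the table, 9 had no count in any library, including COL3A1, DCN, LUM and CXCL12, and the summed stromal level ranged from 5.60 to 6.70 CPM in hBMSC-CM with vehicle and from 5.67 to 6.41 CPM in RPMI with vehicle. Markers of lymphoid and endothelial cells summed to 205 ± 13.9 CPM in RPMI with vehicle and 276 ± 15.3 CPM in hBMSC-CM with vehicle (SD, n = 3), nearly all of it from NCAM1 and PECAM1, and 3 of the 12 had no count. In bulk libraries of this kind, fewer cells of a type and less RNA per cell cannot be told apart.

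APOL4 was the member whose level depended most on the medium. In RPMI with vehicle its 3 libraries had 4.03, 3.60 and 4.24 CPM, and in RPMI with quizartinib 2.68, 1.84 and 2.44 CPM. In hBMSC-CM with vehicle they had 12.4, 12.7 and 11.7 CPM, and in hBMSC-CM with quizartinib 37.4, 36.1 and 35.7 CPM. The 4 groups did not overlap at any point, and their order from lowest to highest was RPMI with quizartinib, RPMI with vehicle, hBMSC-CM with vehicle and hBMSC-CM with quizartinib. These levels rest on 50 to 69 counts per library in the lowest group and on 762 to 1067 in the highest.

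APOL2, an intracellular member, responded to the drug in both media and to the medium hardly at all in the absence of drug. Its libraries had 17.3, 16.8 and 18.1 CPM in RPMI with vehicle and 28.3, 30.0 and 30.2 CPM with quizartinib. In hBMSC-CM they had 17.6, 18.3 and 15.7 CPM with vehicle and 24.0, 22.3 and 24.5 CPM with quizartinib. Both quizartinib groups lay wholly above both vehicle groups, and the vehicle groups overlapped each other.

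APOL1 and APOL3, the first the secreted trypanolytic factor and the second a member with detergent-like activity against intracellular bacteria, had far fewer reads and, like APOL2, were higher with drug in both media. APOL1 had 0.786, 0.978 and 1.20 CPM in RPMI with vehicle, 2.02, 2.40 and 2.30 CPM in RPMI with quizartinib, 1.29, 1.50 and 0.854 CPM in hBMSC-CM with vehicle and 2.21, 2.15 and 1.73 CPM in hBMSC-CM with quizartinib. APOL3 had 0.786, 0.821 and 0.876 CPM in RPMI with vehicle, 2.29, 2.36 and 2.39 CPM in RPMI with quizartinib, 0.891, 0.901 and 0.617 CPM in hBMSC-CM with vehicle and 1.82, 1.67 and 1.83 CPM in hBMSC-CM with quizartinib. For both genes the quizartinib libraries of each medium lay above its vehicle libraries, but only 13 to 39 counts per library stood behind the vehicle values.

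APOL6, a member studied for pro-apoptotic activity, had the most reads and varied the least. Its libraries had 101, 109 and 106 CPM in RPMI with vehicle, 98.6, 94.2 and 88.1 CPM in RPMI with quizartinib, 109, 116 and 112 CPM in hBMSC-CM with vehicle and 105, 99.7 and 99.7 CPM in hBMSC-CM with quizartinib. Within each medium the quizartinib libraries lay below the vehicle libraries, and between the media the vehicle libraries overlapped. APOL5, the remaining annotated gene of the cluster, had no count in any of the 12 libraries and is thus below the limit given above.

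**Figure D1:**
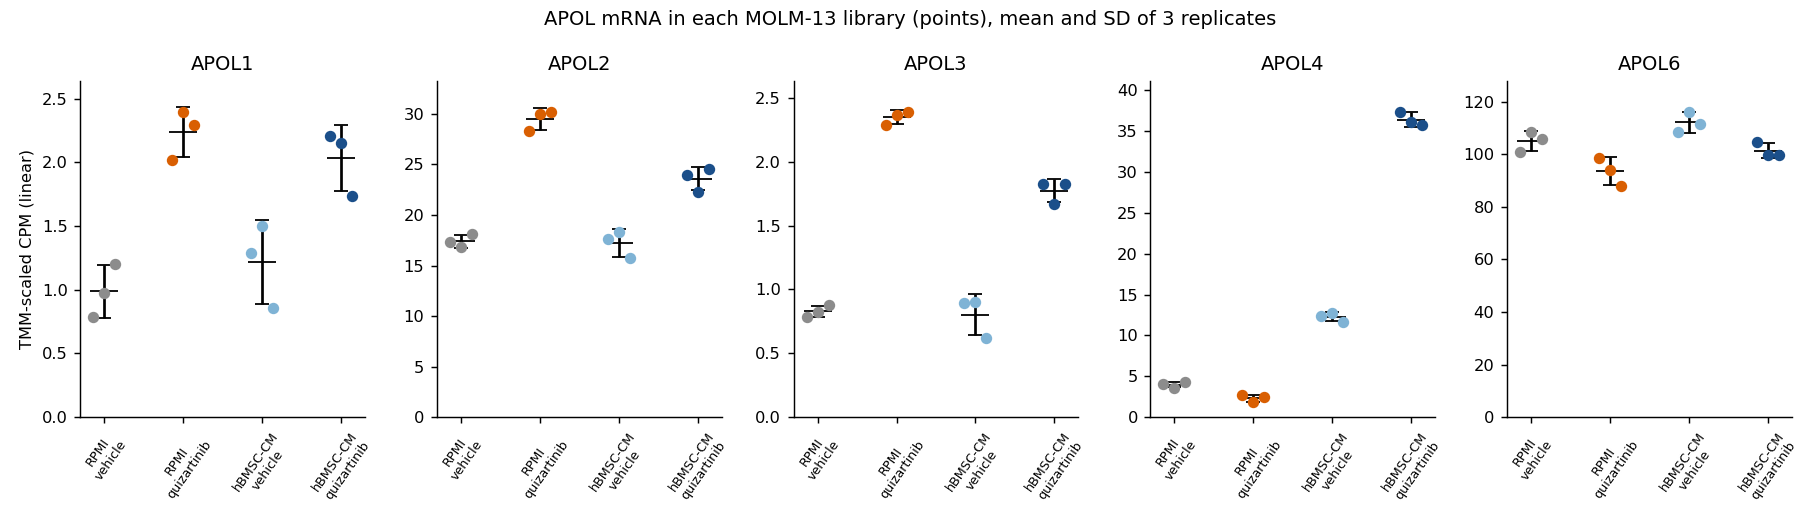
Level of each APOL gene in each of the 12 libraries, in TMM-scaled CPM on linear axes that start at 0 and differ between panels, with points for libraries and bars for the mean and SD of 3 replicates per group. APOL4 stands between 35.7 and 37.4 CPM in hBMSC-CM with quizartinib and at or below 12.7 CPM in every other library. APOL2 and APOL3 are highest in RPMI with quizartinib, while APOL1 overlaps between the groups with quizartinib.

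Levels can be compared between genes only per length, so CPM was also divided by the length of each gene's merged exons in kilobases. In RPMI with vehicle the order was APOL6 at 10.4 ± 0.392, APOL2 at 5.10 ± 0.184, APOL4 at 0.896 ± 0.0743, APOL1 at 0.286 ± 0.0597 and APOL3 at 0.140 ± 0.0076 CPM per kb (SD, n = 3), with no overlap between neighbours in that order. In hBMSC-CM with vehicle the order was the same, with APOL4 at 2.78 ± 0.122 CPM per kb. In RPMI with quizartinib, APOL2 at 8.63 ± 0.309 and APOL6 at 9.30 ± 0.523 CPM per kb overlapped, as did APOL1 at 0.647 ± 0.0570 and APOL4 at 0.525 ± 0.0974 CPM per kb, so neither pair can be ordered. In hBMSC-CM with quizartinib APOL4 stood second at 8.24 ± 0.198 CPM per kb, between APOL6 at 10.1 ± 0.282 and APOL2 at 6.90 ± 0.337 CPM per kb. With the longest annotated transcript as the length, APOL4 in that group came to 10.6 ± 0.255 CPM per kb, and its place relative to APOL6 turned over, while APOL2 in RPMI with quizartinib came to 11.0 ± 0.394 CPM per kb and lay above APOL6. The order among the most abundant members therefore depends on which transcripts are counted as present.

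The mixture of APOL mRNA shifted between groups. Of the summed CPM of APOL1, APOL2, APOL3 and APOL4, APOL4 took 17.1 ± 0.752% in RPMI with vehicle, 6.39 ± 1.28% in RPMI with quizartinib, 39.0 ± 1.28% in hBMSC-CM with vehicle and 57.1 ± 1.03% in hBMSC-CM with quizartinib (SD, n = 3). The summed CPM of these 4 genes was 23.2 ± 1.11, 36.4 ± 1.06, 31.5 ± 2.38 and 63.8 ± 1.57 in the same order. In RPMI the increase with drug came from the other 3 genes while APOL4 was lower, and in hBMSC-CM it came mostly from APOL4. With APOL6 included, the 5 genes summed to 128 ± 3.89, 130 ± 4.24, 144 ± 5.22 and 165 ± 4.28 CPM, and APOL6 gave 81.9 ± 0.964% of the reads in the first group and 61.4 ± 0.323% in the last.

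**Figure D2:**
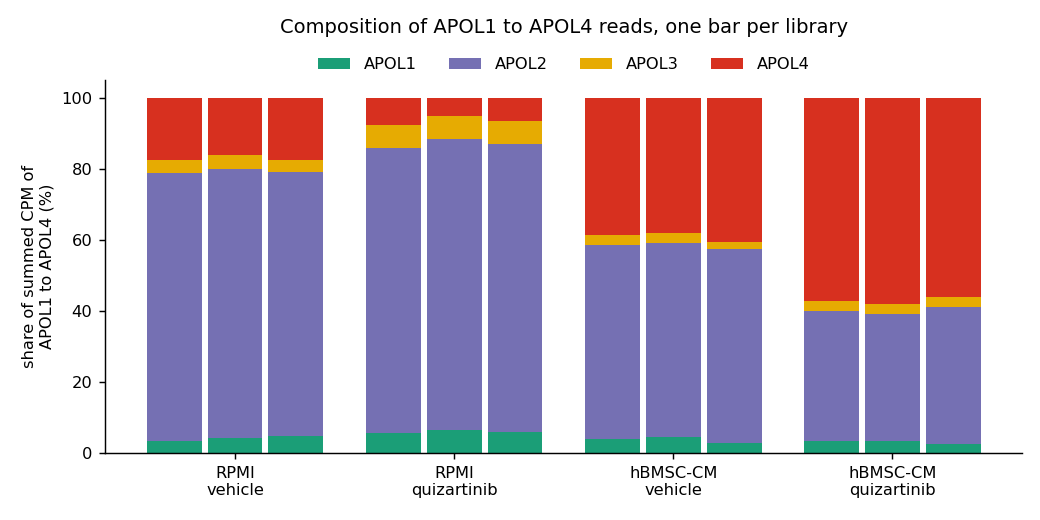
Share of the summed CPM of APOL1, APOL2, APOL3 and APOL4 that each gene took, in percent, with 1 stacked bar per library and the 3 libraries of each group side by side. APOL4 rises from 6.39% on average in RPMI with quizartinib to 57.1% in hBMSC-CM with quizartinib, with little difference among the 3 bars of a group. These are shares of reads and are not corrected for length.

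The comparison of hBMSC-CM with RPMI in vehicle-treated cells asks what stromal factors do to APOL expression without drug, and shares no library with the comparison that drew attention to APOL4. APOL4 rose 3.11-fold in hBMSC-CM (log2 fold change 1.64, standard error 0.101, adjusted p = 1.15e-10, from the quasi-likelihood test of edgeR, with p adjusted over all tested genes by Benjamini-Hochberg). It was 1 of 5 members to pass the threshold, against 32.1% of all genes tested in either direction and 16.6% that were higher, and it alone had libraries that did not overlap between the media, as 44.6% of all genes did. Only 21 of the 12998 genes tested had a larger log2 increase. None of the other 4 members passed. APOL2 had a log2 fold change of -0.01 with a 95% interval from -0.16 to 0.13, and APOL6 of 0.09 with an interval from -0.00399 to 0.19. The scarce members were measured less closely, with intervals from -0.17 to 0.82 for APOL1 and from -0.49 to 0.45 for APOL3, and the change seen for APOL4 lies outside each of the 4 intervals. The study states in general that its replicates were biological, and the labels number them without naming separate cultures. The p-values therefore set each difference against the spread between these libraries, which may not be that between separate cultures.

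Quizartinib in RPMI, the setting in which the kinase is inhibited without stromal factors, raised APOL1, APOL2 and APOL3 and lowered APOL6. Its libraries take part in the comparison by which APOL4 was noticed, so APOL4 is described here without a test. Of all genes tested 79.3% passed the threshold, 40.1% higher and 39.2% lower, and for 81.1% the libraries did not overlap, as for the 5 members, with 41% on the higher side. APOL3 rose 2.84-fold (log2 fold change 1.50, standard error 0.178), APOL1 2.30-fold (1.20, standard error 0.207) and APOL2 1.69-fold (0.76, standard error 0.0655), with adjusted p of 1.23e-07, 1.98e-05 and 7.98e-10 from edgeR's quasi-likelihood test. APOL3 had entered the test through its quizartinib levels, and without the filter its log2 fold change was 1.40 and still passed. APOL4 was 1.72-fold lower (log2 fold change -0.78, standard error 0.136). APOL6 was 1.12-fold lower (log2 fold change -0.16, standard error 0.0471, adjusted p = 0.00323, same edgeR test), and this call was lost when libraries were scaled by their totals alone (-0.076, adjusted p = 0.149 by edgeR) or by upper quartiles (-0.063, adjusted p = 0.219 by edgeR). Because so large a share of all genes passed, the number of members called says little about the cluster, and their values are better read against the median absolute log2 change of 0.48 over all genes tested.

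In hBMSC-CM, quizartinib again raised APOL1, APOL2 and APOL3 and lowered APOL6. Here 67.1% of all genes tested passed the threshold, 33.4% higher and 33.7% lower, 68.4% had libraries that did not overlap, the median absolute log2 change was 0.30, and the quizartinib libraries again take part in the comparison that drew attention to APOL4. APOL4 was 2.97-fold higher with drug (log2 fold change 1.57, standard error 0.0757), given as a description. APOL3, APOL1 and APOL2 rose as they did in RPMI, by 1.12 (standard error 0.194), 0.75 (standard error 0.205) and 0.45 (standard error 0.0679) on the log2 scale, with adjusted p of 3.34e-05, 0.00312 and 6.09e-06 from the same edgeR test, and APOL3 still passed without the filter (1.09). APOL6 was 1.11-fold lower (log2 fold change -0.14, standard error 0.0470, adjusted p = 0.0102 by edgeR). That call too was lost with scaling by totals (-0.041, adjusted p = 0.461 by edgeR) or upper quartiles (-0.063, adjusted p = 0.245 by edgeR), and without the second hBMSC-CM vehicle library (-0.12, adjusted p = 0.055 by edgeR).

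The pair of comparisons can be set side by side for each member. The fitted difference between the drug effect in hBMSC-CM and that in RPMI was 2.35 for APOL4 (standard error 0.155) and 0.02 for APOL6 (standard error 0.0665) on the log2 scale, given without a test. For APOL1, APOL2 and APOL3 it was -0.46 (standard error 0.297), -0.31 (standard error 0.0945) and -0.38 (standard error 0.274). As a description, the 95% interval ran from -0.51 to -0.11 for APOL2, from -1.07 to 0.16 for APOL1 and from -0.95 to 0.19 for APOL3. Among all genes tested 45.2% passed the threshold for this difference, 26.1% upward. Over all genes tested, 109 (0.839%) passed the threshold lower with drug in RPMI and higher with drug in hBMSC-CM. APOL4 moved in these directions, but it was chosen with the quizartinib libraries known, so no call is given for it. In both media 3791 genes (29.2%) were higher, as APOL1, APOL2 and APOL3 were, and 3916 (30.1%) were lower, as APOL6 was.

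Among quizartinib-treated cells, hBMSC-CM held 15.8-fold more APOL4 mRNA than RPMI. The difference was 3.98 on the log2 scale, with a standard error of 0.0987, and 5 of the 12998 genes exceeded it. This is the comparison by which APOL4 was chosen. The other members differed far less and not all in the same direction. APOL2 was lower in hBMSC-CM by a log2 fold change of -0.32 (standard error 0.0636) and APOL3 by -0.40 (standard error 0.154), with no overlap between the libraries. APOL1 overlapped (-0.13, standard error 0.179), and APOL6 was slightly higher without overlap (0.11, standard error 0.0473). In this comparison 69.8% of all genes tested passed the threshold and 71.5% had libraries that did not overlap, 36.3% on the higher side. Leaving out the second RPMI quizartinib library, which had the lowest APOL4 level of all 12, gave 3.82 for APOL4.

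**Figure D3:**
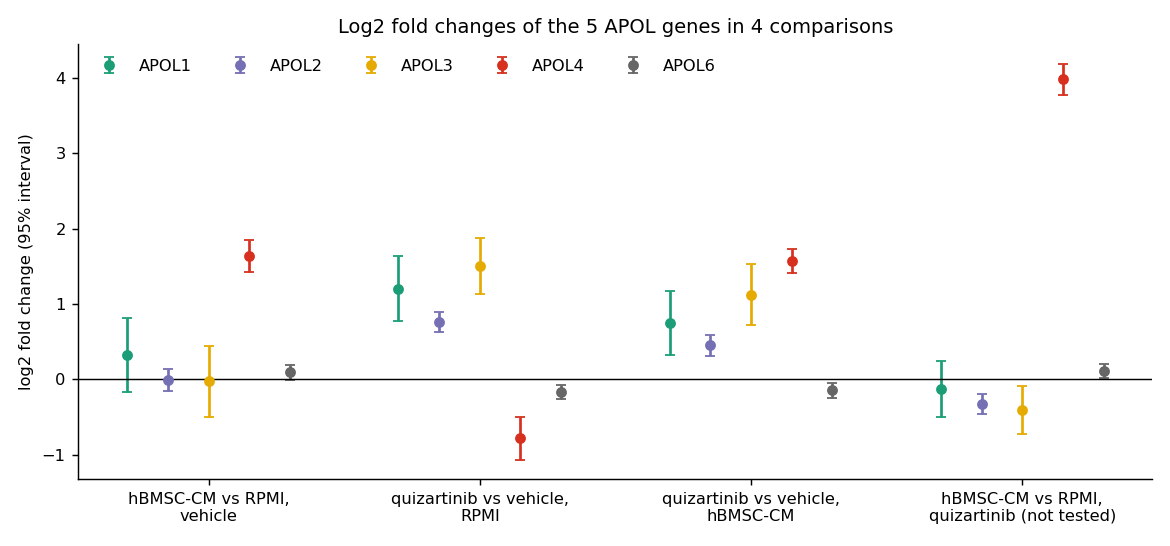
Log2 fold change of each APOL gene (points) with its 95% interval (bars) in the 4 comparisons named on the x axis, with a line at 0 for no difference. APOL4 lies at 1.64, -0.78, 1.57 and 3.98 from left to right and is the only member below 0 by more than 0.5 in RPMI with drug, while APOL6 stays within 0.2 of 0 throughout. The last comparison was not tested, nor was APOL4 in the comparisons of quizartinib with vehicle, so those intervals are descriptions.

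Over the 12 libraries the members followed 3 different patterns. The log2 levels of APOL2 and APOL3 were correlated (Pearson's r = 0.986), as were those of APOL1 with APOL3 (0.927) and APOL2 (0.895). APOL4 was correlated with none of them (r from -0.20 to 0.10), and APOL6 ran opposite to APOL1, APOL2 and APOL3 (r from -0.60 to -0.83). These coefficients describe 12 libraries that share 4 conditions, mostly reflect the differences between groups and carry no test.

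Among the genes whose profile over the 12 libraries was most like that of APOL4 were B3GNT5 (r = 0.989), GLIPR2 (0.989), PIM2 (0.988) and CLDND1 (0.984). PIM2 encodes a serine/threonine kinase and B3GNT5 a glycosyltransferase. All 4 were lowest in RPMI with quizartinib and highest in hBMSC-CM with quizartinib. PIM2, for example, had means of 8.33, 5.18, 15.2 and 39.2 CPM in RPMI with vehicle, RPMI with quizartinib, hBMSC-CM with vehicle and hBMSC-CM with quizartinib. The genes most like APOL2 were H1F0 (a linker histone), AL031777.3, CHD3 (a chromatin remodeler), LHFPL2 and KCNH2, and those most like APOL3 were REPS2, TGFBR2 (a TGF-beta receptor), PPP1R3B, PLXND1 and SEPT6. For APOL1 they were TMEM105, BTF3P7, LINC02132, C3AR1 (the receptor of complement C3a) and MRPS6, and for APOL6 TMEM68, CHUK (a kinase of the NF-kB pathway), MTFMT, THAP5 and RYK. Ranked by Spearman's rho, 2 of the 5 genes named for APOL1 remained and none of those named for the other members, so these names depend on the measure of likeness.

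The genes near the cluster were read in the same comparisons. Within 500 kb of the span, 28 further annotated genes had a row in the table and 14 were tested. In hBMSC-CM against RPMI with vehicle, 2 of the 14 were higher and 2 were lower, beside 16.6% and 15.5% of all genes tested. The median log2 fold change of the 14 was 0.02. RASD2, a small GTPase gene, rose by 0.91 (adjusted p = 8.53e-06) and HMOX1, which encodes heme oxygenase, by 0.37 (adjusted p = 0.0239, both by edgeR's quasi-likelihood test), and the number higher fell to 1 without the first or the third RPMI vehicle library or the first hBMSC-CM vehicle library. MYH9, the non-muscle myosin gene next to APOL1, had -0.29 (adjusted p = 7.5e-04 by the same edgeR test), and RBFOX2, between APOL6 and APOL3, did not pass (0.15, adjusted p = 0.0748 by edgeR). With drug, 5 of the 14 neighbours were higher and 6 lower in RPMI, beside 40.1% and 39.2% of all genes tested. In hBMSC-CM the counts were likewise 5 and 6, beside 33.4% and 33.7% of all genes tested. None of the 14 was lower in RPMI and higher in hBMSC-CM, a pattern found in 0.839% of all genes tested. RBFOX2 fell in both (-1.15 and -0.69 on the log2 scale) and MYH9 rose in both (0.36 and 0.26). Among quizartinib-treated cells the neighbour with the largest log2 difference between the media in favor of hBMSC-CM was RASD2 (1.04, standard error 0.303). RASD2 was scarce in these cells, with means of 0.338 CPM in RPMI and 0.724 CPM in hBMSC-CM.

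**Figure D4:**
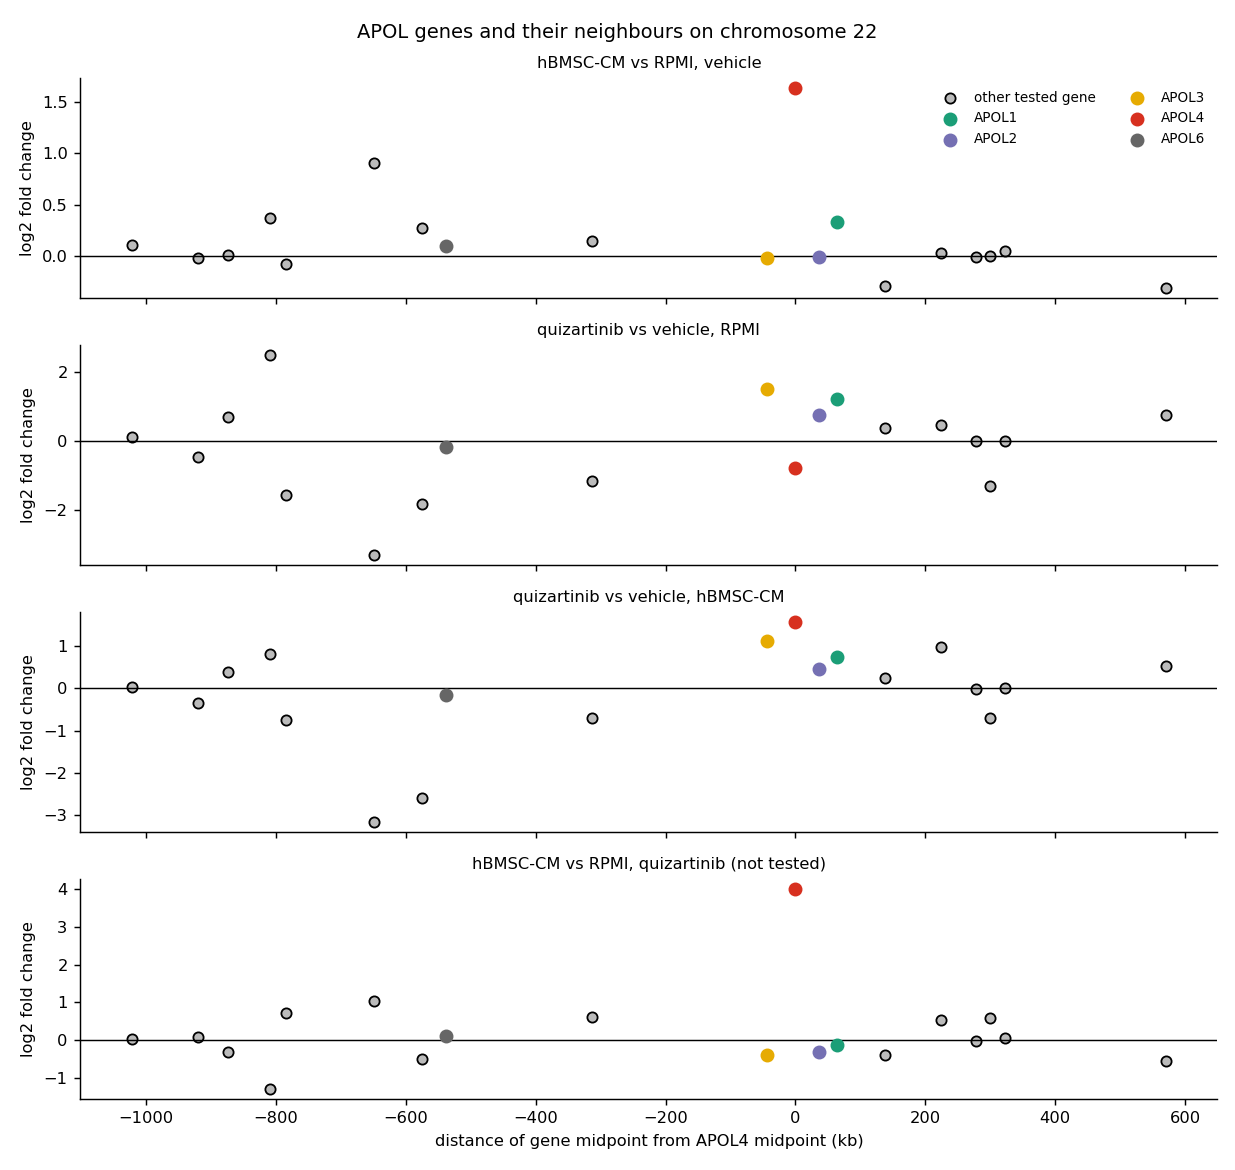
Log2 fold change (y axis) of the 5 APOL genes (colored points) and of the 14 other tested genes within 500 kb of the cluster (grey points) against the distance of each gene's midpoint from that of APOL4 in kb, in 4 comparisons that each have their own y scale. APOL4 is the highest point in the top panel at 1.64 and in the bottom panel at 3.98, with its immediate neighbours APOL3 and APOL2 near or below 0 in both.

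Because APOL genes are known to respond to interferon, the interferon pathway and its targets were followed as lists of genes, which were drawn up with earlier results of these data known. Without drug, the medians of the interferon lists differed little between the media. Over all genes tested 16.6% were higher and 15.5% lower. Of 23 tested genes of interferon signaling, 5 were higher and 7 lower (median log2 fold change -0.04), of 46 genes induced by type I interferon 9 were higher and 9 lower (0.00), and of 19 genes induced by interferon gamma 6 were higher and 6 lower (0.04, with 3 lower when the first hBMSC-CM vehicle library was left out), beside a median of -0.00246 over all genes tested. Antigen presentation genes leaned upward, with 11 of 28 higher and 1 lower (0.12), led by the class II genes HLA-DPB1 (1.45), HLA-DRA (0.77) and HLA-DRB1 (0.72). HLA-DPB1 was scarce, with means of 0.244 CPM in RPMI with vehicle and 0.704 CPM in hBMSC-CM with vehicle, and passed the filter only through its quizartinib levels. OAS1, an antiviral enzyme gene, was lower by -0.47 (adjusted p = 8.71e-04), and TYMP, the thymidine phosphorylase gene, was higher by 1.62 (adjusted p = 3.08e-14, both by edgeR's quasi-likelihood test).

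IL-6 family cytokine and STAT3 targets had the highest median of the lists followed in this comparison. Of 17 tested genes, 13 were higher in hBMSC-CM with vehicle and 2 were lower, with a median log2 fold change of 0.79, beside the 16.6% and 15.5% of all genes. SOCS3, the feedback inhibitor of this pathway, rose by 2.10 (adjusted p = 1.5e-10), OSM, which encodes the cytokine oncostatin M, by 2.01 (adjusted p = 5.11e-13) and PIM1, a kinase gene, by 1.91 (adjusted p = 3.53e-15, all by edgeR's quasi-likelihood test), while BCL6 (-0.41) and the receptor gene IL6R (-0.75) fell. Among 27 NF-kB targets 11 were higher and 4 lower (median -0.02), with the chemokine gene CCL2 at 2.35 and CCL3 at -1.27. CCL3 passed the filter only through RPMI with vehicle, with a mean of 2.69 CPM there and 1.11 CPM in hBMSC-CM with vehicle. The number of NF-kB targets lower fell to 2 by the DESeq2 Wald test and without the filter. It also fell to 2 without the second or the third RPMI vehicle library or the first or second hBMSC-CM vehicle library. Whether any of these genes act on APOL4 was not tested. Nor was it tested whether STAT3, STAT5 or another factor moved the genes of the IL-6 family and STAT3 list.

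With quizartinib in RPMI, APOL1, APOL2 and APOL3 moved in the direction of most type I interferon genes and APOL4 did not. Of the 46 type I genes 34 rose and 5 fell (median log2 fold change 0.65). Over all genes tested the median was 0.02, with 40.1% higher and 39.2% lower. IFIT2 (2.68), ISG20 (2.64) and OAS1 (2.57) rose most, and HELZ2 (-1.71) fell most. IFIT2 passed the filter only through RPMI with quizartinib, its mean in RPMI with vehicle being 0.706 CPM. The transcription factor genes STAT2, IRF7 and IRF9 rose by 1.80, 1.73 and 1.32, and 17 of the 23 signaling genes rose in all. The 5 that fell included PTPN6 (-2.10) and USP18 (-1.86), both negative regulators, and the transcription factor gene IRF3 (-0.53). Antigen presentation followed, with 22 of 28 higher and 5 lower and with CIITA, the class II transactivator, at 3.31. The interferon gamma list was divided, with 9 of 19 higher and 7 lower. IL-6 family and STAT3 targets had 2 of 17 higher and 10 lower, with OSM at -2.26 and PIM1 at -1.34, and NF-kB targets had 8 of 27 higher and 15 lower, with TNF at -4.71.

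In hBMSC-CM the drug again raised most type I genes, 35 of 46 with 4 lower (median 0.40, against 0.01 over all genes tested, of which 33.4% were higher and 33.7% lower), and 32 of the 46 (69.6%) were higher with drug in both media, as were 29.2% of all genes tested. The pattern of APOL4, lower in RPMI and higher in hBMSC-CM, was found in none of the 46 and in 0.839% of all genes tested, so its absence from the list says little. IL-6 family and STAT3 targets had 7 of 17 higher and 3 lower (median 0.01), close to the share of all genes for those higher, and 2 of the 17 had the APOL4 pattern, PIM1 (-1.34 in RPMI and 0.49 in hBMSC-CM) and CISH (-1.29 and 0.29), a feedback inhibitor of STAT signaling. A further gene with it among the listed ones was NLRC5 (-0.19 and 0.14), the class I transactivator. These 3 were named after their values were seen, and what moved them was not tested.

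Between the media in quizartinib-treated cells the lists separated further. IL-6 family and STAT3 targets were higher in hBMSC-CM for 15 of 17 genes and lower for 2 (median 1.13). OSM (4.27), HP (3.82, the haptoglobin gene) and PIM1 (3.75) had the largest values. HP passed the filter only through hBMSC-CM with quizartinib, and its mean in RPMI with quizartinib was 0.217 CPM. Type I interferon genes were higher for 10 of 46 and lower for 23 (median -0.15), with IFIT2 at -2.64, IFIT3 at -1.73 and OAS1 at -1.60. IFIT2 passed the filter only through RPMI with quizartinib. Outside that group IFIT2 and IFIT3 had means of at most 0.758 and 1.20 CPM. Over all genes tested, 35.5% were higher and 34.3% lower. These are descriptions by count and median, and no list was tested as a set.

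**Figure D5:**
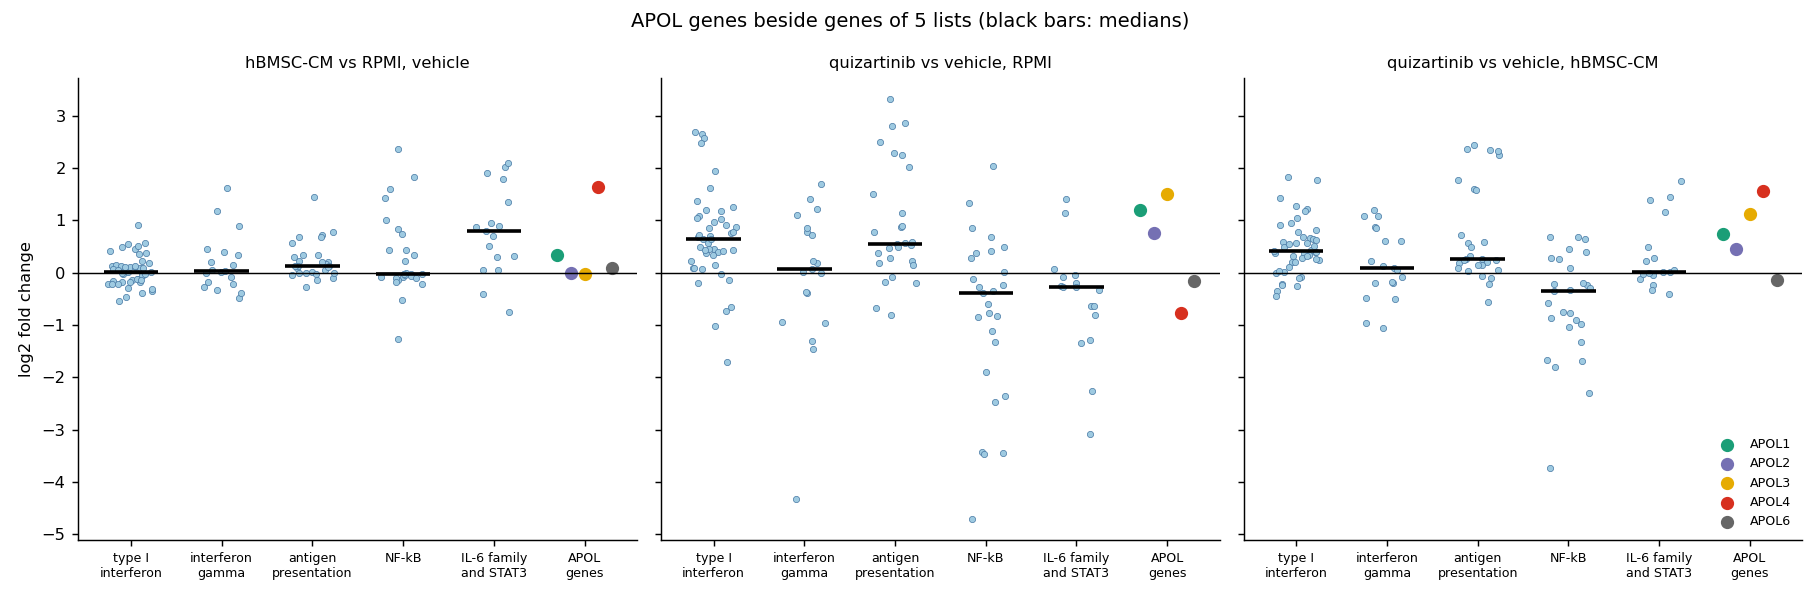
Log2 fold change of every tested gene (blue points) of 5 gene lists, with a black bar at each list's median, beside the 5 APOL genes (colored points) in 3 comparisons that share the y axis. In the left panel APOL4 at 1.64 lies among the upper IL-6 family and STAT3 targets, in the middle panel APOL1, APOL2 and APOL3 lie above the type I interferon median of 0.65 and APOL4 below 0, and in the right panel APOL4 at 1.57 is the highest member.

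The name apolipoprotein is shared by genes of other families, and 8 of 20 of these were tested. In hBMSC-CM with vehicle, where 16.6% of all genes tested were higher and 15.5% lower, APOC1 was higher (0.50) and 1 gene was lower. None was lower by DESeq2, by limma-voom, without the filter, with the replicate block or with only the 2 groups compared. The same held without the third RPMI vehicle or the first hBMSC-CM vehicle library, while 2 were lower under upper quartiles. With quizartinib in RPMI 5 of the 8 rose and 1 fell, beside 40.1% and 39.2% of all genes tested. APOD, a lipocalin, had the largest value at 4.70, but it passed the filter only through this group (mean 3.55 CPM). Its mean in RPMI with vehicle was 0.125 CPM, near the limit given above, so the size of its change is uncertain. APOLD1, an endothelial gene named for an APOL-like domain, had 1.58, and APOO, a nuclear gene for a mitochondrial protein, had -0.99. APOLD1 had 9.54, 12.4 and 10.5 CPM in RPMI with vehicle, 33.6, 30.7 and 32.8 CPM with quizartinib, and in hBMSC-CM 9.10, 8.56 and 9.73 CPM with vehicle and 17.5, 16.4 and 15.8 CPM with quizartinib. Its group order was thus that of APOL2 and not that of APOL4.

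Some measures of the cells moved along with these groups. The summed stromal markers went from 6.04 ± 0.368 to 13.8 ± 1.15 CPM with drug in RPMI, where no stromal medium was added, and from 5.98 ± 0.617 to 9.01 ± 0.518 CPM in hBMSC-CM (SD, n = 3), through COL1A1 and TAGLN. LYZ, a myeloid granule gene, had 275 ± 16.2, 354 ± 6.04, 503 ± 19.7 and 1010 ± 57.7 CPM in RPMI with vehicle, RPMI with quizartinib, hBMSC-CM with vehicle and hBMSC-CM with quizartinib (SD, n = 3), with the highest mean in the same group as APOL4. The share of counts from mitochondrial genes was 0.726 ± 0.0563%, 1.05 ± 0.0466%, 0.511 ± 0.0888% and 0.856 ± 0.150% in the same order. The part of each of these in the APOL values was not tested.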

How the data were processed

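RNA was sequenced from 12 MOLM-13 libraries, 3 per group, taken as the labels give them. The authors removed adapters and short reads with BBDuk, aligned to hg38.p12 (Ensembl release 96), and counted genes with STAR 2.6.0a (version also in the submitters' processing notes). The deposited values are raw counts per gene name, with counts of identifiers that share a name added together. Use of strand in counting is not given in the sources used here. Genes whose mean over all 12 libraries was under 1 count or under 1 CPM were dropped, which left 12998 of the 30572 with a count. They were scaled by TMM and fitted in edgeR 4.0.16 (R 4.3.3) with glmQLFit and glmQLFTest as 4 group means, two-sided, with Benjamini-Hochberg adjustment over all tested genes and a threshold of 0.05. The authors used limma, which is an alternative here. The fit was tested on simulated data.

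The members and gene lists were chosen with earlier results of these data known. Beyond the 5 members, the text names up to 3 called genes with the largest change per list, direction and comparison, the 5 genes of highest Pearson correlation with each member (log2 CPM, prior count 2), markers and neighbours within 500 kb. A gene that this rule would name is not reported here. Positions and lengths come from GENCODE release 44 (GRCh38). Replicates of 1 group differed by more than sampling noise (chi-square per gene 2.66 to 10.5), and no library was left out. The alternatives were other scalings (DESeq2 size factors, library totals, upper quartiles), the DESeq2 1.42.0 Wald test, limma-voom (limma 3.58.1), no filter, the compared groups alone, a replicate block and the removal of each library. The series text names a further treatment, which was not analysed here.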

Additional observations from a re-analysis of the deposited data

Results flagged for a closer look

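APOL4 is listed because its level moved in opposite directions with quizartinib in the 2 media. It was lower with drug in all 3 RPMI libraries (log2 fold change -0.78, standard error 0.136) and higher in all 3 hBMSC-CM libraries (1.57, standard error 0.0757), a fitted difference of 2.35 on the log2 scale (standard error 0.155). The difference was not tested, since the gene was chosen with the quizartinib libraries known.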

How the results depend on the processing

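Of 375 fitted values for members, 361 kept their direction, their side of the threshold or their size within the spread between replicates. APOL4 kept its call in hBMSC-CM against RPMI with vehicle, with log2 fold changes of 1.57 to 1.68 over the removals of a library. The direction turned for 2 members that had not passed in that comparison, where the removals gave -0.053 to 0.044 for APOL2 and -0.12 to 0.12 for APOL3, turning without the third RPMI vehicle library (0.013 and 0.015) and without the third hBMSC-CM vehicle library (0.044 and 0.12). The APOL6 call was lost with drug in RPMI under library totals (-0.076) and upper quartiles (-0.063), and with drug in hBMSC-CM under library totals (-0.041), upper quartiles (-0.063) and removal of the second hBMSC-CM vehicle library (-0.12), the other 5 of 6 removals (-0.17 to -0.12 over all) keeping it. The cause was not tested. Removing a library gave 3.82 to 4.11 for APOL4 between the media with quizartinib and 2.18 to 2.48 for its interaction. Without the filter APOL2 and APOL6 had -0.24 and 0.19 between the media with quizartinib, and the APOL6 interaction was 0.092.

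Scaling moved the median of all genes by 0.10 with drug, under upper quartiles in RPMI and library totals in hBMSC-CM, and no filter moved it by -0.10 in RPMI. Of all calls with drug in hBMSC-CM 49.8% were higher, against 62.8% under library totals and 60.0% under upper quartiles. In the interaction 57.6% were higher, against 70.6% without the filter.

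Replicate numbers did not pair the libraries (0 of 18 same-number pairs above r = 0.1, from -0.23 to 0.098), and in 4 of the 18 comparisons a library correlated best with its own number. With the replicate block APOL4 had 1.63 in hBMSC-CM against RPMI with vehicle, where 3953 genes passed in place of 4174, and no member's call changed. Of 1200 counts for gene lists, 37 moved by over 1.5 times, among them interferon gamma genes lower in hBMSC-CM with vehicle (6, and 3 without its first library) and type I genes lower with drug in hBMSC-CM (4, and 2 without its first quizartinib library). With the longest transcript, 14 of 20 length-scaled levels moved. A planned search of promoter sequences for motifs was not run. Counts limit APOL1 and APOL3 most, with 13 to 39 per library in vehicle.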
